A study of Mus musculus with 9 samples.

Results

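Aminoacyl-tRNA synthetases are the enzymes that attach each amino acid to its transfer RNA (tRNA), the step that supplies charged tRNA to the ribosome. Their nuclear genes were examined in an Eµ-Myc lymphoma after 2 h of exposure to a BET inhibitor. The members were chosen by name, as 35 gene symbols matched to Ensembl identifiers in the GENCODE M21 annotation, and all 35 were found among the 43629 genes of the count table. Of these, 19 encode cytosolic enzymes and 16 encode mitochondrial enzymes, whose symbols end in 2. The gene of the cytosolic methionyl-tRNA synthetase is not among the 35, so the lists drawn from them leave it out. The cells were clone 4242 of an Eµ-Myc lymphoma, a mouse B-cell tumour driven by a Myc transgene under the immunoglobulin heavy chain enhancer, and every group carried that transgene. The groups were JQ1 at 1 µM, RG6146 at 2.5 µM and the solvent DMSO, each applied for 2 h, with 3 libraries per group. JQ1 and RG6146 both inhibit the BET proteins, which bind acetylated histones and help RNA polymerase II to elongate. All cultures came from 1 clone, so p-values measure the spread between cultures of that clone.

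Cytosolic synthetases charge tRNA for the translation of nuclear messages. Several of them are held with non-catalytic scaffold proteins in the multisynthetase complex, and many are known targets of ATF4, the transcription factor of the amino acid response. Mitochondrial synthetases are imported into the organelle, where they charge the tRNAs that read the few messages of the mitochondrial genome. Gars and Kars give both the cytosolic and the mitochondrial enzyme and were counted as cytosolic. MYC, which drives these lymphomas, is known to raise genes of protein synthesis, and its preferred DNA site is the E-box CACGTG.

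Levels were measured as 3′ mRNA counts, about 1 read per transcript, and are given as CPM, counts scaled to a common library size, after TMM scaling of the libraries. These levels are not scaled by length and are compared here between libraries, not between genes. The libraries held 3964732 to 5031717 gene counts under JQ1, 3947240 to 4609612 under RG6146 and 3410161 to 5003725 under DMSO, and the 35 genes took 0.27% to 0.304% of them. All 35 genes passed the filter on low counts. The 3′ ends of Aars, Farsb, Yars, Cars2, Fars2, Iars2 and Vars2 lie within another annotated gene, and reads there may not be assigned with certainty. A cytosolic gene had 60 to 2763 counts per library and a mitochondrial gene 8 to 271, and the median standard error of a log2 fold change under JQ1 was 0.09 for the cytosolic and 0.21 for the mitochondrial genes. In bulk samples such as these, fewer cells of a type and less RNA per cell cannot be told apart. The 8 B lineage markers were detected in every library, with summed levels of 677 to 739 CPM under JQ1, 678 to 796 CPM under RG6146 and 877 to 1011 CPM under DMSO. Markers of other cell types differed in how they moved. The 10 myeloid markers summed to 57.3 to 279 CPM under JQ1, 86.6 to 127 CPM under RG6146 and 161 to 765 CPM under DMSO, and the 5 stromal and endothelial markers to 5.04 to 10.4 CPM, 6.84 to 10.9 CPM and 26.6 to 34.6 CPM in the same order, with Dcn at 0 in all 9 libraries. The 7 T and NK markers summed to 2.77 to 6.25 CPM under JQ1, 5.12 to 7.59 CPM under RG6146 and 7.92 to 11.7 CPM under DMSO, and the 5 erythroid markers to 2.52 to 17.4, 3.69 to 7.85 and 4.69 to 8.69 CPM. The B lineage, stromal and endothelial, and T and NK sums of all 6 treated libraries lay below the DMSO libraries, the myeloid sums did so under RG6146 and overlapped under JQ1, and the erythroid sums overlapped. Csf1r, the myeloid marker called among 8 tested, rose by 0.59 under JQ1 and 0.48 under RG6146 on the log2 scale (edgeR adjusted p = 0.00714 and 0.025). Its RG6146 and DMSO libraries overlapped. The other 7 tested myeloid markers had log2 fold changes below 0 with both compounds and were not called. The median of the 8 was -1.16 under JQ1 and -1.8 under RG6146. Of the 5 stromal and endothelial markers only Pecam1 passed the filter on low counts, and of the 7 T and NK markers only Cd2. After TMM scaling Pecam1 stood at 26.0, 32.7 and 24.9 CPM under DMSO and Cd2 at 7.71, 9.95 and 5.51 CPM. Most of these 2 DMSO sums thus came from 1 gene each, so they do not describe a whole cell type. The marker sums are CPM without TMM scaling, and the part of the markers in the results below was not tested.

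Under JQ1, 5 of the 35 synthetase genes passed the test against DMSO (edgeR quasi-likelihood test, Benjamini-Hochberg adjusted p below 0.05 over 11002 genes). The 4 that fell were Dars, which charges aspartate in the cytosol, and the mitochondrial Ears2, Yars2 and Tars2, which charge glutamate, tyrosine and threonine. The mitochondrial Cars2, which charges cysteine, rose. The share called was 14.3% of the members, against 28.9% of all tested genes, of which 13.6% rose and 15.4% fell. By class it was 1 of 19 cytosolic genes (5.3%) and 4 of 16 mitochondrial genes (25.0%). Under RG6146, 6 of the 35 genes passed the test against DMSO, or 17.1% against 26.0% of all tested genes (12.5% higher and 13.5% lower). The cytosolic Tars, which charges threonine, fell, as did the mitochondrial Ears2, Yars2 and Pars2, while the mitochondrial Nars2 and Mars2 rose. This was 1 of 19 cytosolic genes (5.3%) and 5 of 16 mitochondrial genes (31.2%). Both compounds were compared with the same 3 DMSO libraries, so their results are not independent and are set side by side below.

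**Figure D1:**
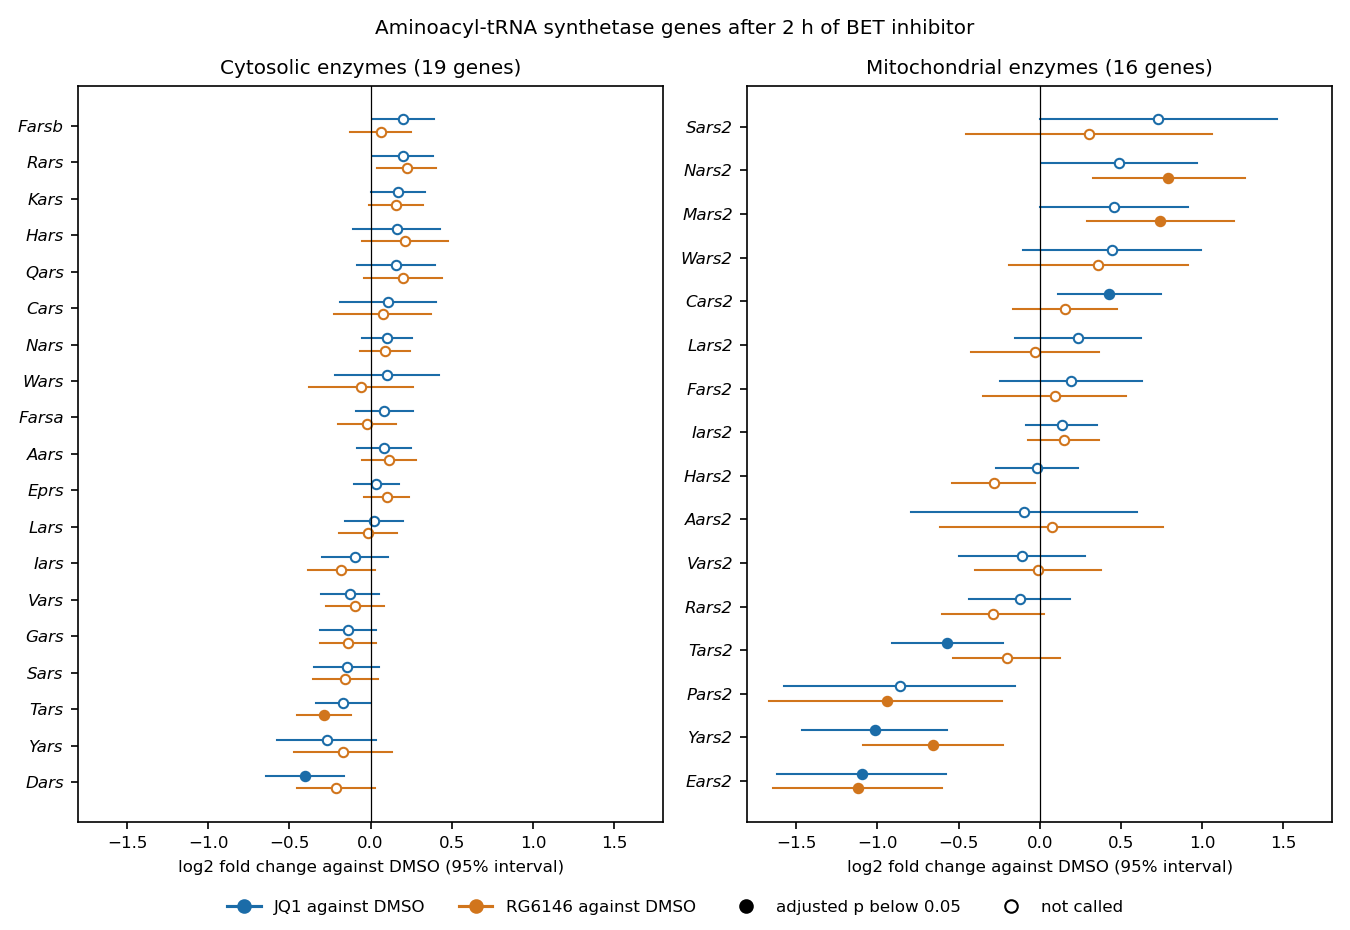
Log2 fold change against DMSO of each of the 35 synthetase genes, with its 95% interval, for JQ1 and RG6146, with cytosolic and mitochondrial genes in separate panels and filled points for adjusted p below 0.05 (edgeR). The cytosolic fold changes lie between -0.40 and 0.22 and the mitochondrial ones between -1.12 and 0.79.

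Ears2, the mitochondrial glutamyl-tRNA synthetase, had the lowest log2 fold change of the 35 genes with both compounds. In mitochondria this enzyme also places glutamate on the tRNA for glutamine, which the GatCAB amidotransferase then converts. Ears2 stood at 3.79, 5.47 and 3.92 CPM under JQ1, at 5.02, 3.80 and 4.09 CPM under RG6146 and at 8.65, 10.8 and 8.87 CPM under DMSO. All 6 treated libraries lay below the 3 DMSO libraries. The log2 fold change against DMSO was -1.09 ± 0.25 under JQ1 (SE, edgeR adjusted p = 0.00267) and -1.12 ± 0.25 under RG6146 (edgeR adjusted p = 0.00259). The 95% interval of the fold was 0.326 to 0.67 for JQ1 and 0.32 to 0.659 for RG6146. These values rest on 15 to 46 counts per library, and both calls held in each alternative setting that tested the gene. The 5′ end of Ears2 overlaps that of Ubfd1 on the opposite strand of chromosome 7. Ubfd1 stood at 42.9, 49.5 and 42.1 CPM under JQ1, 47.4, 42.8 and 50.4 CPM under RG6146 and 49.7, 44.4 and 48.7 CPM under DMSO, and did not pass the test with either compound (edgeR adjusted p = 0.591 and 0.912).

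The subunits of the amidotransferase that acts after Ears2 were in a list of 9 editing, repair and charging partners. Qrsl1, which encodes its catalytic subunit GatA, stood at 26.5, 25.2 and 30.8 CPM under JQ1, at 26.7, 21.8 and 24.8 CPM under RG6146 and at 44.6, 57.4 and 39.8 CPM under DMSO. It fell with both compounds, with no overlap between treated and DMSO libraries. The log2 fold change was -0.78 ± 0.14 under JQ1 (edgeR adjusted p = 0.000405) and -0.95 ± 0.14 under RG6146 (edgeR adjusted p = 7.6e-05), and both calls held in every alternative setting run. Gatb, the subunit that binds the tRNA, stood at 4.21, 4.05 and 4.44 CPM under JQ1, at 5.02, 4.55 and 4.32 CPM under RG6146 and at 6.21, 5.69 and 6.95 CPM under DMSO. Its treated libraries also lay below the DMSO libraries, but it did not pass the test (log2 fold change -0.57 ± 0.25 and -0.44 ± 0.25, edgeR adjusted p = 0.0975 and 0.208). Gatc, the small remaining subunit, overlapped between groups, with log2 fold changes of -0.14 ± 0.19 under JQ1 and -0.25 ± 0.19 under RG6146 (edgeR adjusted p = 0.624 and 0.362). Gatb, Gatc and Ubfd1 were named because of their place beside Ears2 and Qrsl1, after their values were seen.

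**Figure D2:**
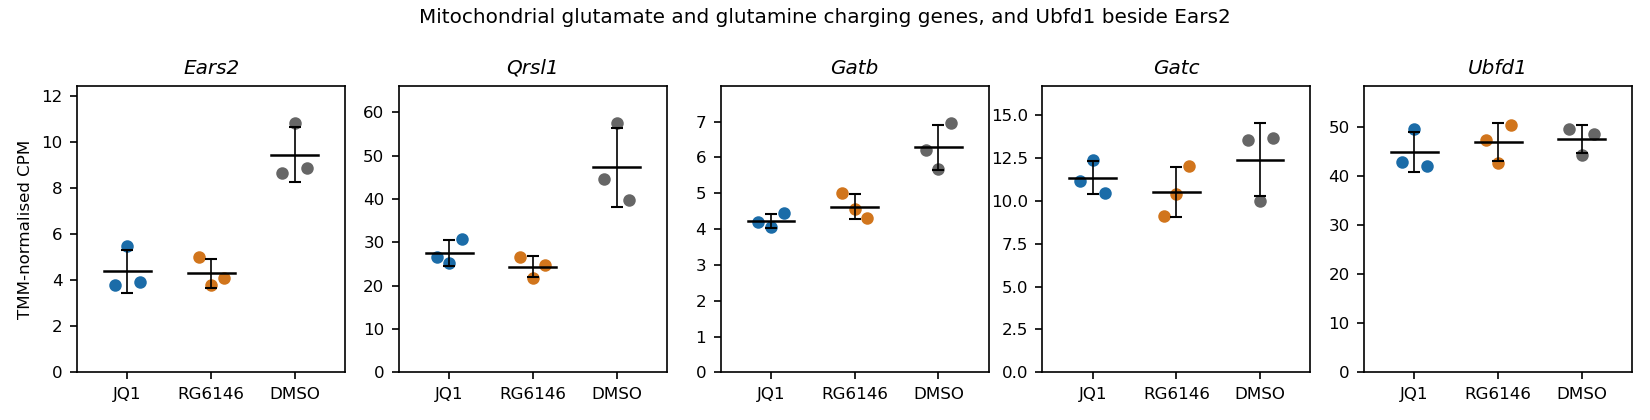
Level in each library, in TMM-normalised CPM from 0, of Ears2, the 3 amidotransferase subunit genes Qrsl1, Gatb and Gatc, and Ubfd1, with JQ1, RG6146 and DMSO from left to right, a bar at each group mean and error bars of 1 SD (n = 3). Treated libraries lie below all DMSO libraries for Ears2, Qrsl1 and Gatb and overlap them for Gatc and Ubfd1.

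Promoter sequences are shown for 4 members, because MYC drives these cells and ATF4 is known to bind synthetase promoters. Each of the 4 holds at least 1 motif described below, and windows without a motif are not printed. Ears2 fell with both compounds, Tars fell under RG6146, and Aars and Gars did not pass the test. A window of 300 bases, 250 before to 50 from the RefSeq start of the gene on, was found for 26 of the 35 genes in the RefSeq table (GRCm38.p6). The E-box CACGTG was present in 5 of the 26 genes (19.2%), against 8.09% of 27025 genes with a window. These were Aars, Ears2, Farsb, Iars and Tars. By class this was 4 of 12 cytosolic genes (33.3%) and 1 of 14 mitochondrial genes (7.14%), namely Ears2. The composite element of C/EBP and ATF proteins, TGATGNAAT on either strand, was present in Aars, Gars and Iars, 3 of 26 (11.5%), against 1.08% of all genes. By class this was 3 of 12 cytosolic genes (25.0%) and none of 14 mitochondrial genes. The windows are chr7:122067037-122067336 on the minus strand for Ears2, chr15:11399609-11399908 on the minus strand for Tars, chr8:111033592-111033891 on the plus strand for Aars and chr6:55037751-55038050 on the plus strand for Gars. Each is printed 5′ to 3′ in the direction of the gene, with matches in capitals. The RefSeq start that places the window lies 177 bases inside the GENCODE gene for Ears2, 698 for Aars and 7 for Tars, and 6 bases outside it for Gars. Ears2 and Tars hold the E-box just after the RefSeq start. Aars holds the E-box and then the composite element on its other strand, and Gars holds the composite element on its other strand. The other called members with a window, Dars, Yars2, Tars2, Cars2, Nars2 and Mars2, held neither, and no window was found for Pars2. The Tars2 window, chr3:95754928-95755227 on the minus strand, lies inside the GENCODE gene, whose 5′ end is at 95760206. For Tars2 the search thus did not cover the GENCODE start. The composite element was searched by its exact letters, so near matches such as gttgcatca in Tars were not counted. A match describes the letters of the window and was not tested as a site.
Ears2: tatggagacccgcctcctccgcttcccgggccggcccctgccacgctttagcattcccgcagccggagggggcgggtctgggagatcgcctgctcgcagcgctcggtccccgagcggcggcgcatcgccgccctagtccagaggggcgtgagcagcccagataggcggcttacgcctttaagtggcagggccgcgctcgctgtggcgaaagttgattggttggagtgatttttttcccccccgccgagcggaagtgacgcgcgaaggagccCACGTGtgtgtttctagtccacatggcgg
Tars: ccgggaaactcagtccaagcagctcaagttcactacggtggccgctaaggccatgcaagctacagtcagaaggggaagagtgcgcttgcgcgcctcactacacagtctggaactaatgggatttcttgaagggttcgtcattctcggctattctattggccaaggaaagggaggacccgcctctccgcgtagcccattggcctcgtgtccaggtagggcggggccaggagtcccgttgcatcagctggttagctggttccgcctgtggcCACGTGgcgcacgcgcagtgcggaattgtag
Aars: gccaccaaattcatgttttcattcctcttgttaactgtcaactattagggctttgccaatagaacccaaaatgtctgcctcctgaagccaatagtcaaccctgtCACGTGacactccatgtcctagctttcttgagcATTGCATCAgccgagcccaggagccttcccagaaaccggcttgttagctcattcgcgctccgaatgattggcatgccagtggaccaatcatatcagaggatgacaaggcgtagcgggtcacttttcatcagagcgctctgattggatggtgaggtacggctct
Gars: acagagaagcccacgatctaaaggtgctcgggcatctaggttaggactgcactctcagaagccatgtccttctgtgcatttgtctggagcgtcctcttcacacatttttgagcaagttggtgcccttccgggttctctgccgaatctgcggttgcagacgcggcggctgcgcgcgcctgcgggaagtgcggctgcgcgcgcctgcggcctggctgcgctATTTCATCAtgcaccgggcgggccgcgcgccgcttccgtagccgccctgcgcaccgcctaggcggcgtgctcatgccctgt

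Yars2, the mitochondrial tyrosyl-tRNA synthetase, stood at 5.68, 8.81 and 8.10 CPM under JQ1, at 9.12, 11.1 and 8.63 CPM under RG6146 and at 16.9, 16.5 and 12.0 CPM under DMSO. Every treated library lay below every DMSO library. It fell under JQ1 with a log2 fold change of -1.02 ± 0.21 (edgeR adjusted p = 0.0014) and under RG6146 with -0.66 ± 0.20 (edgeR adjusted p = 0.0236). The JQ1 call held in every setting. The RG6146 call was lost with DESeq2 (adjusted p = 0.121), with ERCC scaling, and without RG6146 replicate 1 or 3 or DMSO replicate 1 or 2 (edgeR adjusted p = 0.0783 to 0.221 over these edgeR fits). With ERCC scaling the value was -0.61, and ERCC scaling with the replicate block kept the call (edgeR adjusted p = 0.0321).

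Tars2, the mitochondrial threonyl-tRNA synthetase, stood at 10.3, 11.4 and 13.9 CPM under JQ1, at 16.4, 14.2 and 15 CPM under RG6146 and at 16.4, 17.3 and 18.9 CPM under DMSO. The JQ1 libraries lay below all DMSO libraries, and the highest RG6146 library reached the level of the lowest DMSO library. It fell under JQ1, with a log2 fold change of -0.57 ± 0.16 (edgeR adjusted p = 0.013), and under RG6146 the value was -0.20 ± 0.16 (edgeR adjusted p = 0.373). The JQ1 call was lost with DESeq2 (adjusted p = 0.0982), with ERCC scaling (-0.57, edgeR adjusted p = 0.21) and without JQ1 replicate 1 (edgeR adjusted p = 0.0724). ERCC scaling with the replicate block kept it (edgeR adjusted p = 0.0196). Pars2, the mitochondrial prolyl-tRNA synthetase, stood at 2.74, 2.38 and 2.35 CPM under JQ1, at 2.74, 2.53 and 1.82 CPM under RG6146 and at 3.95, 3.98 and 5.75 CPM under DMSO, on 8 to 24 counts per library. Its treated libraries were all below the DMSO libraries. The log2 fold change was -0.94 ± 0.34 under RG6146 (edgeR adjusted p = 0.0486) and -0.86 ± 0.34 under JQ1 (edgeR adjusted p = 0.064). The RG6146 call held in 3 of 18 alternative settings and was lost without any 1 of the 9 libraries (edgeR adjusted p = 0.0523 to 0.203).

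The mitochondrial genes that rose did so with 1 compound each by the test. Nars2, which charges asparagine, stood at 8.63, 8.81 and 8.10 CPM under JQ1, at 10.9, 10.1 and 10.5 CPM under RG6146 and at 7.90, 5.40 and 4.56 CPM under DMSO. The treated libraries lay above the DMSO libraries with both compounds. Nars2 rose under RG6146 with a log2 fold change of 0.79 ± 0.22 (edgeR adjusted p = 0.0124), and under JQ1 the value was 0.49 ± 0.23 (edgeR adjusted p = 0.114). Without DMSO replicate 3 the RG6146 call was lost (edgeR adjusted p = 0.0614), and without DMSO replicate 1 the JQ1 value became 0.78 and was called (edgeR adjusted p = 0.0274). The RG6146 call was also lost with DESeq2 (adjusted p = 0.0869) and with ERCC scaling (0.86, edgeR adjusted p = 0.072), and ERCC scaling with the replicate block kept it (edgeR adjusted p = 0.0114).

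Mars2, the mitochondrial methionyl-tRNA synthetase, stood at 20.6, 21.9 and 24.6 CPM under JQ1, at 29.0, 25.8 and 26.8 CPM under RG6146 and at 21.4, 17.1 and 9.83 CPM under DMSO. RG6146 libraries lay above all DMSO libraries, while the lowest JQ1 library lay below the highest DMSO library. It rose under RG6146 with a log2 fold change of 0.74 ± 0.21 (edgeR adjusted p = 0.0177), and the JQ1 value was 0.46 ± 0.21 (edgeR adjusted p = 0.125). The RG6146 call was lost without RG6146 replicate 1 or 3 (edgeR adjusted p = 0.0686 and 0.052), and without DMSO replicate 1 the JQ1 value became 0.75 and was called (edgeR adjusted p = 0.0108). Cars2 stood at 20.4, 24.0 and 21.4 CPM under JQ1, at 16.4, 19.5 and 18.6 CPM under RG6146 and at 16.2, 13.9 and 18.7 CPM under DMSO. It rose under JQ1 with a log2 fold change of 0.43 ± 0.15 (edgeR adjusted p = 0.0403), against 0.15 ± 0.15 under RG6146 (edgeR adjusted p = 0.502). The JQ1 call held in 7 of 19 alternative settings and was lost without any 1 of the JQ1 replicates and without DMSO replicate 1 or 2 (edgeR adjusted p = 0.0529 to 0.141). The 3′ end of Cars2 overlaps that of Naxd on the opposite strand, whose log2 fold change was 0.37 ± 0.15 under JQ1 (edgeR adjusted p = 0.0673). Without a stated strand setting, reads of the 2 genes may not be separated.

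**Figure D3:**
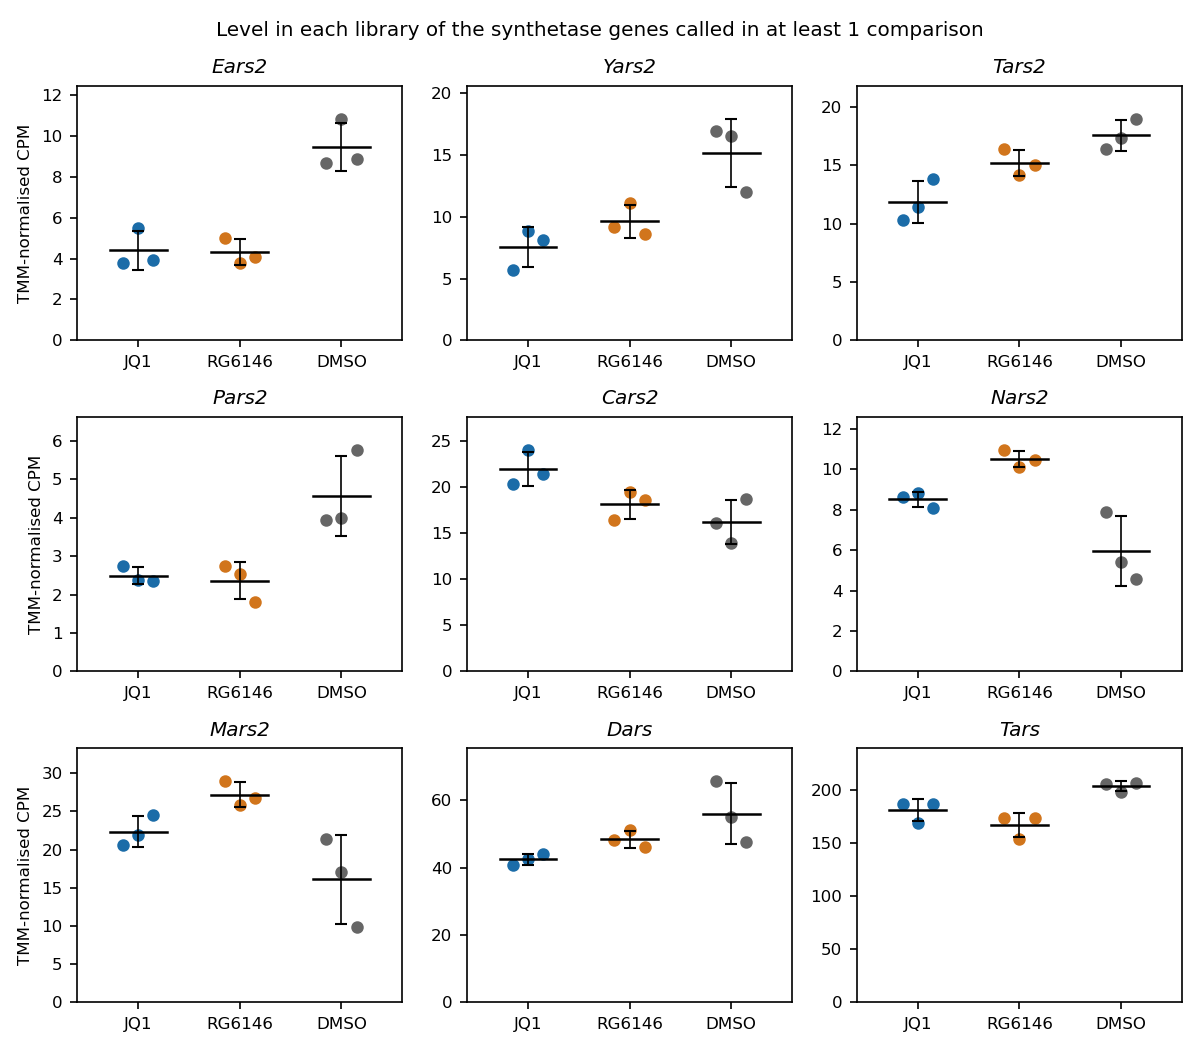
Level in each library, in TMM-normalised CPM from 0, of the synthetase genes called in at least 1 comparison with DMSO, with JQ1, RG6146 and DMSO from left to right, a bar at each group mean and error bars of 1 SD (n = 3). Ears2 and Yars2 lie below all DMSO libraries with both compounds, and Mars2 and Nars2 under RG6146 lie above them.

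Of the 16 mitochondrial genes, 12 under JQ1 and 11 under RG6146 did not pass the test. Sars2, which charges serine, stood at 8.84, 3.81 and 4.97 CPM under JQ1 against 2.82, 3.98 and 4.08 CPM under DMSO, a log2 fold change of 0.73 ± 0.35 (edgeR adjusted p = 0.125). Its JQ1 and DMSO libraries overlapped, and without JQ1 replicate 2 the call was made (edgeR adjusted p = 0.049). Hars2, which charges histidine, stood at 21.2, 22.5 and 21.8 CPM under RG6146 against 27.5, 25.3 and 26.9 CPM under DMSO, and did not pass the test (log2 fold change -0.28 ± 0.12, edgeR adjusted p = 0.0969). Aars2, Fars2, Iars2, Lars2, Rars2, Vars2 and Wars2, for alanine, phenylalanine, isoleucine, leucine, arginine, valine and tryptophan, had log2 fold changes between -0.12 and 0.44 under JQ1 and between -0.29 and 0.36 under RG6146. The median over the 16 genes was 0.06 under JQ1 and 0.03 under RG6146, beside 0.0047 and 0.0086 over all tested genes, and 8 of 16 values were above 0 with each compound.

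Among the 19 cytosolic genes, the changes that passed the test were small. Dars, the aspartyl-tRNA synthetase of the multisynthetase complex, stood at 40.8, 42.6 and 43.9 CPM under JQ1, at 48.1, 51.1 and 46.1 CPM under RG6146 and at 65.6, 54.9 and 47.5 CPM under DMSO. JQ1 libraries lay below all DMSO libraries, and DMSO replicate 3 lay within the RG6146 libraries. Dars fell under JQ1 with a log2 fold change of -0.40 ± 0.11 (edgeR adjusted p = 0.0134), or 0.756 of the DMSO level, and the RG6146 value was -0.21 ± 0.11 (edgeR adjusted p = 0.19). The JQ1 call was lost with ERCC scaling, where the value was -0.39 (edgeR adjusted p = 0.381), but not when the replicate block was added to that scaling (edgeR adjusted p = 0.0221). It was lost without JQ1 replicate 1 (edgeR adjusted p = 0.0559). Without DMSO replicate 1 it was lost too, where the value was -0.27 (edgeR adjusted p = 0.099).

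Tars, the cytosolic threonyl-tRNA synthetase, stood at 187, 169 and 187 CPM under JQ1, at 174, 154 and 174 CPM under RG6146 and at 206, 198 and 207 CPM under DMSO. All treated libraries lay below all DMSO libraries. Tars fell under RG6146 with a log2 fold change of -0.29 ± 0.08 (edgeR adjusted p = 0.0113), or 0.82 of the DMSO level, and the JQ1 value was -0.17 ± 0.08 (edgeR adjusted p = 0.118). The RG6146 call was lost with ERCC scaling, where the value was -0.26 without and with the replicate block (edgeR adjusted p = 0.624 and 0.068), and without RG6146 replicate 2, where the value was -0.23 (edgeR adjusted p = 0.0758).

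The other cytosolic genes did not pass the test, and their intervals were narrow. Over all 19, the 95% interval of the fold lay between 0.64 and 1.35 for every gene under JQ1 and between 0.721 and 1.39 for every gene under RG6146, so a 2-fold change lay outside each interval. Eprs, a fused enzyme for glutamate and proline, stood at 540, 497 and 528 CPM under JQ1, at 560, 551 and 524 CPM under RG6146 and at 520, 514 and 494 CPM under DMSO. Its log2 fold changes were 0.03 ± 0.07 and 0.10 ± 0.07 (edgeR adjusted p = 0.74 and 0.295). Rars, which charges arginine, stood at 298, 247 and 314 CPM under JQ1, at 308, 284 and 281 CPM under RG6146 and at 236, 251 and 262 CPM under DMSO. It had log2 fold changes of 0.20 ± 0.09 and 0.22 ± 0.09 (edgeR adjusted p = 0.0997 and 0.0718), and without JQ1 replicate 2 it was called with both compounds (edgeR adjusted p = 0.0104 and 0.0265). Kars, the lysyl-tRNA synthetase of cytosol and mitochondria, stood at 103, 102 and 106 CPM under JQ1, at 102, 97.7 and 110 CPM under RG6146 and at 94.2, 91.0 and 92.1 CPM under DMSO. Its treated libraries lay above the DMSO libraries with both compounds, with log2 fold changes of 0.17 and 0.16 that did not pass the test (edgeR adjusted p = 0.124 and 0.161). Gars, which charges glycine, had -0.14 ± 0.08 with each compound (edgeR adjusted p = 0.23 and 0.236), and Aars, which charges alanine, 0.08 ± 0.08 and 0.11 ± 0.08 (edgeR adjusted p = 0.485 and 0.327). The remaining genes, Cars, Farsa, Farsb, Hars, Iars, Lars, Nars, Qars, Sars, Vars, Wars and Yars, had log2 fold changes between -0.27 and 0.20 under JQ1 and between -0.18 and 0.21 under RG6146.

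Treated and DMSO libraries did not overlap for 2 cytosolic genes above and 3 below under JQ1, and for 5 above and 1 below under RG6146. Among mitochondrial genes the counts were 2 above and 4 below under JQ1 and 2 above and 5 below under RG6146. Over both classes this was 31.4% of the 35 genes under JQ1, beside 42.6% of all tested genes (20.6% above and 22.0% below), and 37.1% under RG6146, beside 40.9% (20.1% above and 20.9% below). The share of members called with each compound was thus below the share of all genes, while the mitochondrial genes, with 25.0% and 31.2%, were near it. The median size of the log2 fold change, taken without its sign, was 0.14 for cytosolic and 0.44 for mitochondrial genes under JQ1, and 0.14 and 0.28 under RG6146. The mitochondrial genes had fewer counts and larger standard errors, as given above, and the part of this in the difference between the classes was not tested.

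The class medians depended on the scaling, and without TMM each changed sign apart from the cytosolic median under RG6146, which stayed below 0. Library sizes without TMM moved the median of all genes to -0.13 under JQ1 and -0.10 under RG6146. The cytosolic medians, 0.08 under JQ1 and -0.02 under RG6146 with TMM, became -0.05 and -0.13 with that scaling, and the mitochondrial medians became -0.08 with each compound. With that scaling 6 cytosolic genes were called lower under JQ1 and 4 under RG6146, and with ERCC scaling none was called with either, or 1 under JQ1 and none under RG6146 with the replicate block added. Gm42418, which overlaps ribosomal RNA sequence and took the most counts, stood at 145162, 134913 and 127439 CPM under JQ1, at 132352, 106857 and 153322 CPM under RG6146 and at 93650, 126667 and 111527 CPM under DMSO. Its JQ1 libraries lay above all DMSO libraries and its RG6146 libraries overlapped them, and it did not pass the test (edgeR adjusted p = 0.242 and 0.346). Its part in the results without TMM was not tested.

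Under RG6146 set directly against JQ1, no synthetase gene passed the test (edgeR, lowest adjusted p = 0.999 over the 35). Of all tested genes 0.00909% passed, which is 1 gene, also with DESeq2. At an unadjusted p below 0.05 there were 2 members and 427 of all genes. The doses differ, 2.5 µM for RG6146 and 1 µM for JQ1, so this compares the treatments as given. Tars2 was at -0.20 against DMSO under RG6146 and at -0.57 under JQ1, a log2 difference of 0.36 ± 0.16 with a 95% interval of 0.02 to 0.71. Hars2 was at -0.28 under RG6146 and at -0.02 under JQ1, a log2 difference of -0.27 ± 0.12 with a 95% interval of -0.52 to -0.01. For Ears2 the log2 difference was -0.03, with an interval of -0.60 to 0.55, and for Yars2 it was 0.36, with an interval of -0.10 to 0.83. The cytosolic genes had intervals of the fold within 0.719 and 1.35, and the mitochondrial genes within 0.455 and 1.82. Libraries of RG6146 and JQ1 did not overlap for 5 genes above and 2 below, 20% of the members, beside 9.93% of all tested genes (5.39% above and 4.54% below).

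Cytosolic synthetases were also described by their known regulation, beside other genes of the amino acid response. ATF4 is a transcription factor that raises amino acid transport and synthesis genes when amino acids are scarce. Atf4 itself stood at 344, 342 and 324 CPM under JQ1, at 313, 349 and 311 CPM under RG6146 and at 220, 190 and 203 CPM under DMSO. It rose with both compounds, with log2 fold changes of 0.72 ± 0.08 (edgeR adjusted p = 2.14e-06) and 0.67 ± 0.08 (edgeR adjusted p = 5.5e-06) and no overlap with DMSO. The amino acid response list, which leaves out synthetases, holds 30 genes, of which 23 were tested. Of these, 11 rose and 1 fell under JQ1 (median 0.31), and 9 rose and 1 fell under RG6146 (median 0.31). Of all tested genes 13.6% rose and 15.4% fell under JQ1, and 12.5% rose and 13.5% fell under RG6146. Among the list genes that rose were Mthfd2, a mitochondrial folate enzyme (0.79 and 0.71), Slc38a2, a neutral amino acid transporter (0.65 and 0.54), and Slc1a5, a glutamine transporter (0.57 and 0.51). The 1 that fell was Slc7a1, an arginine and lysine transporter, named after its values were seen (-0.56 and -0.65). With ERCC scaling 6 genes of the list rose under JQ1 and 5 under RG6146, with none lower. Slc38a2, Slc1a5 and Slc7a1 were then no longer called, at JQ1 values of 0.65, 0.56 and -0.55 and RG6146 values of 0.58, 0.53 and -0.61. With the replicate block added to ERCC scaling, 10 rose and 1 fell under JQ1 and 9 rose and 1 fell under RG6146, and these 3 genes were called with both compounds (edgeR adjusted p = 9.75e-05 to 0.00131). Ddit3, an ATF4 target of stress signalling, did not pass the test (-0.05 and -0.01, edgeR adjusted p = 0.844 and 0.98).

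Of the 12 listed cytosolic synthetases known as ATF4 targets, none rose with either compound, none fell under JQ1 and Tars fell under RG6146. Of all tested genes 13.6% rose and 15.4% fell under JQ1, and 12.5% rose and 13.5% fell under RG6146. In a list of 12 genes such shares amount to few genes, and the difference from them was not tested. The median log2 fold change of the 12 was -0.04 under JQ1 and -0.08 under RG6146. The 7 other cytosolic synthetases, with 1 called lower under JQ1 (Dars) and none under RG6146, had medians of 0.16 with each compound. By the complex, the 7 members that belong to the multisynthetase complex had medians of 0.03 and 0.10 and the 12 outside it 0.08 and -0.04. By catalytic fold, the 8 class I members had medians of 0.06 and -0.04 and the 10 class II members 0.08 and 0.02. The mRNA of Myc stood at 128, 174 and 154 CPM under JQ1, 201, 178 and 207 CPM under RG6146 and 125, 113 and 103 CPM under DMSO, and it rose with both compounds (0.42 and 0.78, edgeR adjusted p = 0.00815 and 5.9e-05). Its JQ1 call was lost with library sizes without TMM (edgeR adjusted p = 0.0603) and with ERCC scaling (edgeR adjusted p = 0.276), and was kept by ERCC scaling with the replicate block (edgeR adjusted p = 0.026). At the 3′ end, transcripts of the transgene and of the endogenous gene may not be told apart.

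**Figure D4:**
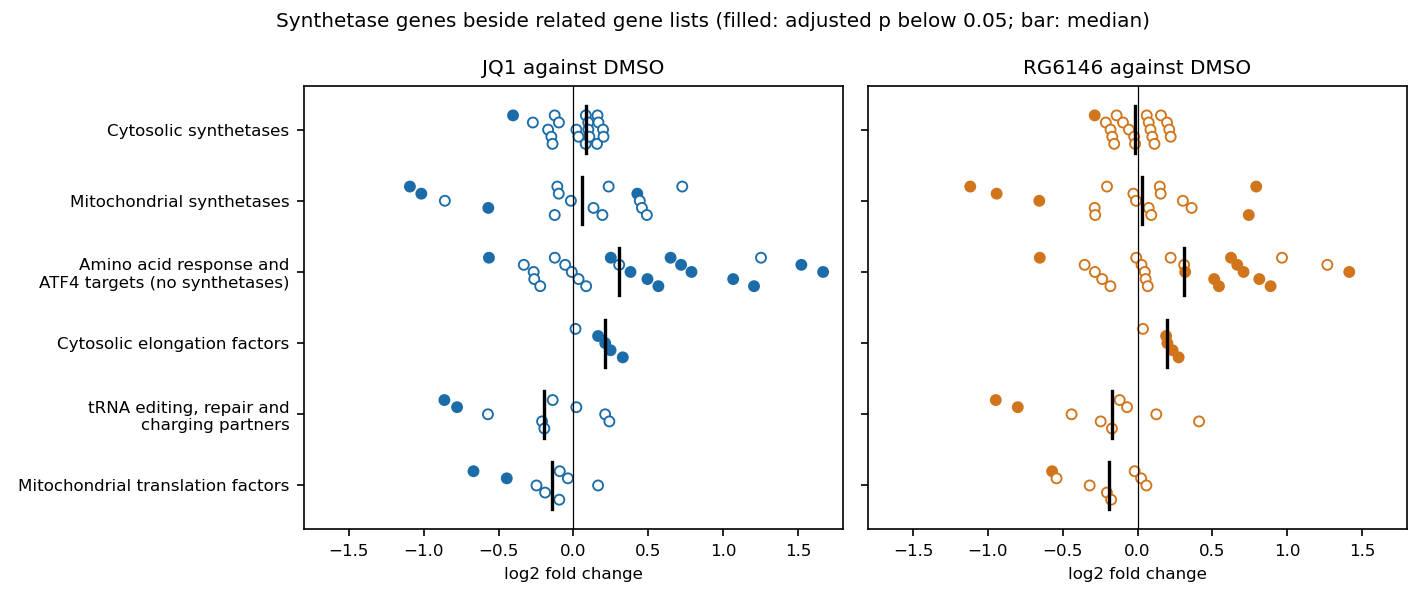
Log2 fold change against DMSO of each tested gene in the synthetase classes and the related lists, with JQ1 and RG6146 in separate panels, filled points for adjusted p below 0.05 (edgeR) and a bar at each list's median. The amino acid response list has a median of 0.31 with each compound and the cytosolic synthetases have medians of 0.08 under JQ1 and -0.02 under RG6146.

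The partners of the synthetases gave mixed values. Of the 3 scaffold genes of the multisynthetase complex, Aimp2 rose to 84.6, 85.2 and 95.9 CPM under JQ1 and to 81.2, 89.6 and 84.3 CPM under RG6146, against 60.0, 62.3 and 66.2 CPM under DMSO. Treated and DMSO libraries did not overlap, and the log2 fold changes were 0.50 ± 0.09 and 0.44 ± 0.09 (edgeR adjusted p = 0.00042 and 0.00137). ERCC scaling gave log2 fold changes of 0.49 and 0.46 that did not pass the test (edgeR adjusted p = 0.2 and 0.258), and with the replicate block added both were called (edgeR adjusted p = 0.00285 and 0.00406). Aimp2 overlaps Eif2ak1 at its 3′ end on the opposite strand, and Eif2ak1 also rose, by 0.35 and 0.25 (edgeR adjusted p = 0.0023 and 0.0249), so reads of the pair may not be separated. Aimp1 had log2 fold changes of 0.02 and 0.01 and Eef1e1 of -0.34 and -0.21, and neither passed the test.

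Prorsd1 encodes a protein related to bacterial editing proteins that clear the tRNA for proline of wrong amino acids. It stood at 28, 25.7 and 24.8 CPM under JQ1, at 29.4, 25.6 and 27.0 CPM under RG6146 and at 53.6, 46.6 and 42.4 CPM under DMSO. It fell with both compounds and did not overlap DMSO (log2 fold change -0.86 ± 0.12 and -0.80 ± 0.12, edgeR adjusted p = 2.76e-05 and 6.78e-05). Prorsd1 and Qrsl1 were the genes called of the 9 editing, repair and charging partners, with none higher. The list median was -0.19 under JQ1 and -0.17 under RG6146, and 15.4% and 13.5% of all tested genes fell. Mtfmt, which formylates the initiator methionyl-tRNA of mitochondria, had log2 fold changes of 0.24 ± 0.15 and 0.41 ± 0.15 (edgeR adjusted p = 0.253 and 0.0508). Aarsd1, of the same list, had 0.21 ± 0.09 under JQ1 and 0.13 ± 0.09 under RG6146 (edgeR adjusted p = 0.0765 and 0.319). Its JQ1 libraries lay above all DMSO libraries, and its RG6146 libraries overlapped them.

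Downstream of charging, the cytosolic elongation factors deliver the charged tRNA to the ribosome and move it on. Of 5, 4 rose with each compound, with list medians of 0.21 and 0.20, beside 13.6% of all tested genes under JQ1 and 12.5% under RG6146. Eef2, the translocase, had log2 fold changes of 0.33 ± 0.05 and 0.23 ± 0.05 (edgeR adjusted p = 0.000158 and 0.0033), and Eef1a1, the carrier of the charged tRNA, 0.21 ± 0.06 and 0.19 ± 0.06 (edgeR adjusted p = 0.0146 and 0.0284). With library sizes without TMM 1 of 5 was called under JQ1 and none under RG6146, and with ERCC scaling none was called. ERCC scaling with the replicate block called Eef2 with both compounds (edgeR adjusted p = 0.011 and 0.033) and Eef1d, an exchange factor, under RG6146 (edgeR adjusted p = 0.0387). With 1 library left out, 1 to 4 of them were called under JQ1, with 1 without JQ1 replicate 3, and 2 to 4 under RG6146. The RG6146 call of Eef1a1 was lost without any 1 of the RG6146 replicates and without DMSO replicate 1 or 3 (edgeR adjusted p = 0.0651 to 0.0858), and its JQ1 call without JQ1 replicate 1 or 3 or DMSO replicate 1 (edgeR adjusted p = 0.0514 to 0.0786). Of 8 tested mitochondrial translation factors, Mtif2 and Mrrf fell under JQ1 and Mtif2 under RG6146, with list medians of -0.14 and -0.19. Of all tested genes 15.4% fell under JQ1 and 13.5% under RG6146. Mtif2, the mitochondrial initiation factor that brings in the initiator tRNA, stood at 30.7, 27.4 and 30.1 CPM under JQ1, at 27.6, 27.3 and 25.9 CPM under RG6146 and at 41.2, 43.2 and 35.7 CPM under DMSO. Its groups did not overlap, with log2 fold changes of -0.44 ± 0.11 and -0.57 ± 0.11 (edgeR adjusted p = 0.00621 and 0.00109). ERCC scaling gave -0.45 and -0.54, which did not pass the test (edgeR adjusted p = 0.278 and 0.181), and with the replicate block added both were called (edgeR adjusted p = 0.0141 and 0.00538). DESeq2 also ended the JQ1 call (adjusted p = 0.0515). Mrrf, which recycles mitochondrial ribosomes, had log2 fold changes of -0.67 ± 0.22 and -0.54 ± 0.21 (edgeR adjusted p = 0.0263 and 0.0705). Its JQ1 call was lost with DESeq2 (adjusted p = 0.146), with ERCC scaling, without any 1 of the JQ1 replicates and without DMSO replicate 1 (edgeR adjusted p = 0.0501 to 0.179), and was kept by ERCC scaling with the replicate block (edgeR adjusted p = 0.0278).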

How the data were processed

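Messenger RNA 3′ ends were measured in 9 libraries from clone 4242 of an Eµ-Myc lymphoma (QuantSeq, 500 ng of RNA, NextSeq 500, single-end reads of 75 bases, per the labels' protocols). The deposited values are raw counts of reads per gene. Per the submitters' processing notes, the authors worked on the build mm10 with HISAT2 2.1.0, featureCounts and Subread, and also with limma, cutadapt 1.7, bcl2fastq 2.17.1.14 and FastQC 0.11.5. Strand setting, annotation release and rules for multimapping reads were not given in the sources used here, so overlapping genes on opposite strands may share reads. The table holds 43629 genes and 92 ERCC spike-in rows, which entered neither the tests nor the library sizes. Symbols came from GENCODE M21 on the same build, and 1081 identifiers had none.

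The analysis used edgeR 4.0.16 under R 4.3.3. The filterByExpr function with a minimum count of 10 kept 11002 genes. Libraries were scaled by TMM, and the 9 libraries entered 1 quasi-likelihood fit with robust moderation, in which group was the sole term. Genes with an adjusted p below 0.05 (Benjamini-Hochberg, all tested genes) were called. Levels are TMM-normalised CPM, except summed levels of marker lists. Standard errors and 95% intervals are from the fitted coefficient without a prior count. Within groups, library pairs differed beyond sampling noise (chi-square over its degrees of freedom 6.87 to 17), and each library counts as 1 sample. The fitting script was tested on simulated data with known changes.

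All 35 members may be named by the rule. Called members were given in full, up to 8 per direction, compound and class. From each related list up to 4 genes with the smallest p were named, and Atf4, Ddit3 and Myc whatever their result. Genes named outside this rule (Gatb, Gatc, Ubfd1, Naxd, Eif2ak1, Slc7a1, Gm42418 and Dcn) were chosen after their values were seen. The members and lists were chosen with earlier results of these data known. Alternatives were scaling by library size or by the ERCC counts, DESeq2 1.42.0, limma-voom (limma 3.58.1), the replicate number as a block, other filters, a fit of the compared groups alone, no robust moderation, and each library left out.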

Additional observations from a re-analysis of the deposited data

How the results depend on the processing

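Each number of synthetase genes called lay within 1.5 times the reported one, apart from the following. Library size scaling without TMM gave 6 cytosolic genes under JQ1 (reported 1) and 4 under RG6146 (reported 1). ERCC scaling gave 0 cytosolic genes with each compound, and 2 mitochondrial genes with each (reported 4 under JQ1 and 5 under RG6146). DESeq2 gave 2 mitochondrial genes with each compound, as did the filter at a mean of at least 10 CPM, which tested 10 of the 16. ERCC scaling with the replicate block gave 0 cytosolic genes under RG6146. With 1 library left out, 0 to 2 cytosolic genes were called with each compound, 2 to 5 mitochondrial genes under JQ1 and 2 to 4 under RG6146. For RG6146 against JQ1 the number was 0 in every setting run. The cause of these shifts was not tested. No named synthetase gene changed its direction together with its call.

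Replicate numbers are shared across groups, but the deviations of same-numbered libraries from their group means correlated at -0.0627 to 0.103, so the numbers were not taken to pair the samples. The ERCC share of all counts did go with the number, at 1.35% to 1.51% in the 3 libraries numbered 1, 1.17% to 1.22% in those numbered 2 and 0.958% to 1.13% in those numbered 3. With the replicate number as a block, 3092 genes were called for JQ1 (3184 without it), 2789 for RG6146 (2863) and 0 for RG6146 against JQ1 (1). In that fit 1 cytosolic gene was called with each compound, and 3 mitochondrial genes under JQ1 and 4 under RG6146.

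Over all genes, ERCC scaling called 1196 genes for JQ1 and 1082 for RG6146, ERCC scaling with the replicate block 2829 and 2604, and DESeq2 2147 and 1902. For RG6146 against JQ1, ERCC scaling called 4 genes and the test without a filter 17. The share of calls that were higher was 27.2% for JQ1 and 29.7% for RG6146 with library sizes alone, against 47.0% and 48.0% with TMM. With ERCC scaling it was 37.2% for JQ1 and 42.3% for RG6146. Depth limits the mitochondrial genes most, with 8 to 271 counts per library and standard errors up to 0.36 on the log2 scale.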
